A study of Mus musculus with 8 samples.

Results

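The genes described here are the 4 adenosine receptors (Adora1, Adora2a, Adora2b and Adora3) and 5 genes that make, remove or transport adenosine (Nt5e, Adk, Ada, Slc29a1 and Slc29a2). They were chosen by name: every non-control probe was taken whose gene name in the scanner files, or gene symbol in the authors' deposited table, was one of these 9. This gave 12 of the 55681 non-control probes on the array, with 3 genes on 2 probes and 6 genes on 1. RNA of the striatum was measured on 1-colour Agilent arrays in 4 R6/2 and 4 wild-type (WT) samples, all from male mice aged 4 weeks. R6/2 is a Huntington's disease model in which a transgene supplies exon 1 of human huntingtin with a lengthened CAG repeat; WT controls lack it. Whether each sample is a different animal is not stated in the labels, and the p-values therefore describe only how these samples vary, in part perhaps for technical reasons.

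Adenosine is a signal that rises when cells use ATP. Outside cells it is made from released nucleotides, ending with the ecto-enzyme encoded by Nt5e, and it crosses membranes through equilibrative transporters such as those of Slc29a1 and Slc29a2. Inside cells, adenosine kinase (Adk) turns it into AMP and adenosine deaminase (Ada) into inosine. In the striatum the A2A receptor (Adora2a) is concentrated on the projection neurons of the indirect pathway, where it raises cAMP and opposes the dopamine D2 receptor, whereas the A1 receptor (Adora1) is widespread and lowers cAMP.

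All values below are log2 of the processed signal minus log2 of the array's 75th percentile, so that 0 is the 75th percentile, and levels of different probes cannot be compared with each other. Testing required a signal well above background on 4 or more arrays of either genotype. A gene was called at a limma adjusted p under 0.05, with Benjamini-Hochberg adjustment over all 35121 tested probes, and was represented by its brightest tested probe. All 9 genes and 11 of the 12 probes passed this filter, each of the 11 on all 8 arrays. The arrays had a 75th percentile of 434 to 486 units and 61.5% to 67.7% of probes well above background, and correlations within a genotype were 0.983 to 0.993. All 8 lay on 1 slide, with the R6/2 arrays in slide row 2 and the WT arrays in slide row 1, so that slide row and genotype cannot be told apart. Of the fixed markers, all 13 of indirect pathway neurons other than Adora2a and all 10 of direct pathway neurons were well above background on all 8 arrays, but so were all 8 of cortical glutamatergic neurons and all 12 of astrocytes, so detection alone does not set striatum apart from neighbouring tissue.

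Of the 9 genes, 1 was called, Adora2a, and it was lower in R6/2 striatum. Of the 16881 tested genes on the array 1.95% were called, 1.49% lower and 0.468% higher, and of all tested probes 1.51% were called. The R6/2 and WT values did not overlap for 3 of the 9 genes, Adora2a, Adora1 and Slc29a1, each lower in R6/2, where 14.5% of all tested genes did not overlap and 6.72% did so with R6/2 lower. The remaining 6 genes had overlapping values. The median difference over the 9 genes was 0.02, as was the median over all tested genes. The unadjusted p was under 0.05 for 3 of the 9 genes, against 19.0% of all tested genes.

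**Figure D1:**
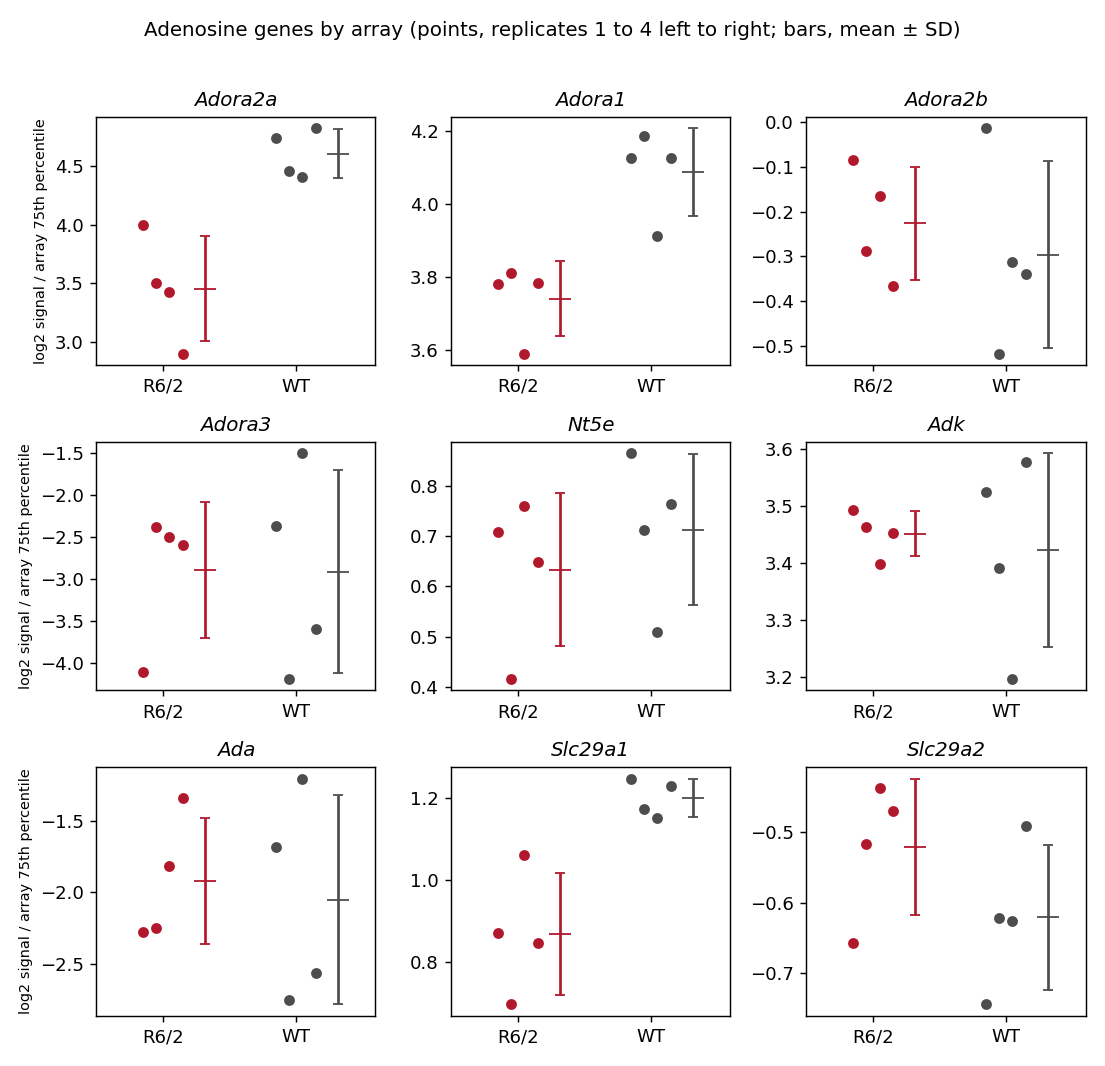
Log2 signal relative to each array's 75th percentile for the 9 genes, by their brightest tested probe, with R6/2 left of WT and a separate vertical scale in each panel. Points are single arrays and bars are mean ± SD (n = 4 each); the groups are separated for Adora2a, Adora1 and Slc29a1 and overlap for the other 6 genes.

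The probes that carry these results are 60 bases long and are printed as the scanner files give them. A stretch of 30 bases is given for the 3 genes whose groups did not overlap and for both Adora3 probes, which behaved differently from each other. Capitals mark AATAAA, the usual polyadenylation signal, where a stretch holds it.
Adora2a: ccctgagataaAATAAAatgagccacactg
Adora1: tagaaggagagacctgacatgttgtcctta
Slc29a1: cattttactgccttttttatactgacagaa
Adora3: gtgcatttgagcaAATAAAagatgatgccc
Adora3, second probe: cagagggctcccgaatgtccattctgatca
The Adora2a and Adora3 stretches are bases 31 to 60 of their probes and the others bases 1 to 30. AATAAA was found in 2 of the 12 probes and in 10.1% of all non-control probes, and its reverse complement TTTATT in 2 of the 12 and 3.74% of all. In the scanner files' mm9 coordinates, the Adora2a probe lies at chr10:74797461-74797520 on the plus strand, the Adora1 probe at chr1:136095833-136095892 on the minus strand and the Slc29a1 probe at chr17:45722171-45722230 on the minus strand. The Adora3 probes lie at chr3:105711212-105711271 and, across a gap, chr3:105721698-105722939, both on the plus strand. Exon and UTR annotation of this build was not used here.

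Adora2a fell in R6/2 striatum. Its log2 values were 4.00, 3.50, 3.43 and 2.90 in R6/2 replicates 1 to 4, against 4.74, 4.46, 4.40 and 4.82 in WT replicates 1 to 4. Every R6/2 array was below every WT array, and R6/2 replicate 1 came nearest to WT while R6/2 replicate 4 was farthest. As processed signals these were 7637, 5324, 4668 and 3447 units in R6/2, against 12619, 9806, 9204 and 13738 units in WT. The mean was 3.46 ± 0.45 in R6/2 and 4.61 ± 0.21 in WT (SD, n = 4 each), a log2 difference of -1.15 ± 0.22 (limma SE; 95% interval -1.65 to -0.64), or 2.22-fold lower. The limma adjusted p was 0.0499, just under the threshold, and 0.0789 with the replicate number as a block, where it was no longer called. Over 16 alternative settings the difference stayed between -1.33 and -0.96 and the adjusted p ran between 0.0221 and 0.147, with the call kept in 5 and lost in 11. Leaving out any one array other than R6/2 replicate 1 was among the settings that ended the call. In this bulk tissue, fewer cells of a type and less RNA per cell cannot be told apart.

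Adora1, the receptor that couples to inhibitory G proteins, had values of 3.78, 3.81, 3.59 and 3.78 in R6/2 replicates 1 to 4, against 4.13, 4.19, 3.91 and 4.13 in WT replicates 1 to 4. The groups did not overlap, and replicate 3 was the lowest array in both. The difference was -0.35 ± 0.09 (limma SE, 95% interval -0.55 to -0.15), or 1.27-fold lower, with a limma adjusted p of 0.0964. With array weights the adjusted p was 0.0461, the only one of 16 alternatives that called it.

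The difference of Adora2a exceeded that of Adora1. Adora2a minus Adora1 averaged -0.28 ± 0.46 in R6/2 and 0.52 ± 0.19 in WT (SD, n = 4 each), a further difference of -0.80 ± 0.25 (SE). The two-sided exact permutation p was 0.0286, the smallest that 4 against 4 arrays allow. Exchanging genotypes within replicate numbers gave an exact p of 0.125, the smallest that 4 pairs allow. Because different probes respond differently, this sets changes, not levels, side by side.

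**Figure D2:**
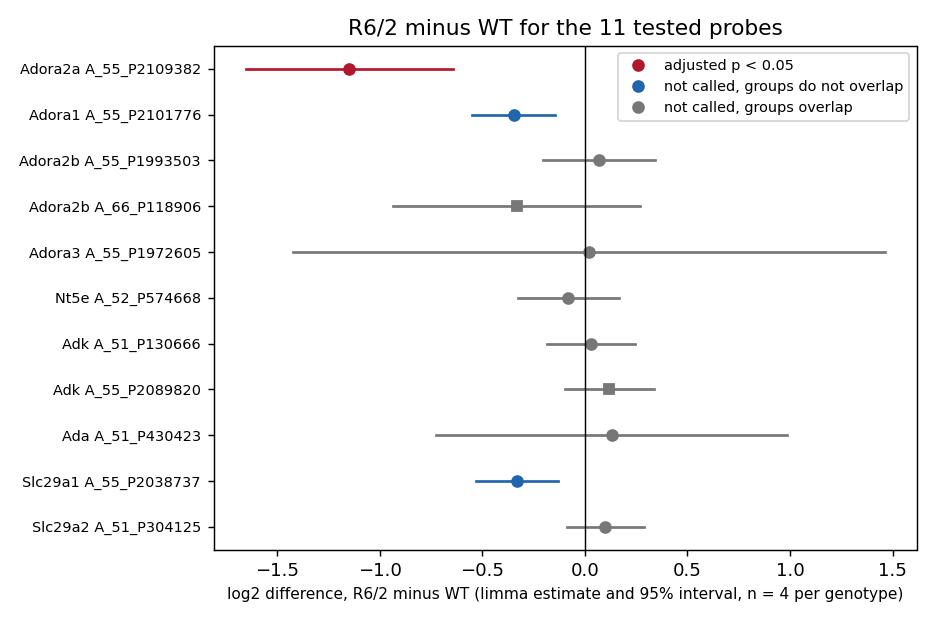
Log2 differences, R6/2 minus WT, with 95% limma intervals for the 11 tested probes (n = 4 per genotype); squares are second probes of a gene. The interval of Adora2a runs between -1.65 and -0.64, and those of Adora1 and Slc29a1 are also wholly below 0, while the other 8 include 0.

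Adora2b, the low-affinity receptor that like A2A raises cAMP, was measured by 2 probes. The brighter gave -0.08, -0.29, -0.17 and -0.37 in R6/2, against -0.01, -0.52, -0.31 and -0.34 in WT, a difference of 0.07 ± 0.12 (95% interval -0.20 to 0.34, limma adjusted p 0.807). The dimmer gave -3.02, -2.84, -2.60 and -2.63 in R6/2, against -2.81, -2.77, -1.61 and -2.56 in WT, a difference of -0.33 ± 0.26 (95% interval -0.94 to 0.27, limma adjusted p 0.57). The probes differ in sign, and both have overlapping groups. WT replicate 3 stood above the other arrays on the dimmer probe.

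Adora3, a receptor that couples to inhibitory G proteins and is expressed by microglia in mouse brain, varied more between arrays than between genotypes. Its brighter probe read -4.10, -2.39, -2.50 and -2.60 in R6/2, against -2.37, -4.19, -1.51 and -3.60 in WT. R6/2 replicate 1 and WT replicates 2 and 4 were low and WT replicate 3 was high. The difference was 0.02 ± 0.63 with a limma adjusted p of 0.991, and its 95% interval of -1.42 to 1.46 includes changes of more than 2-fold in either direction. The summed level of 12 microglial markers, in multiples of each array's 75th percentile, was 132 to 147 in R6/2 and 148 to 177 in WT, highest in WT replicate 3. The largest part of each sum was the bright Itgam probe. Of the 12 markers 0 were called, with 10 lower and 2 higher in sign. The part of the microglial level in the Adora3 values was not tested. The second probe carries the accession that the RefSeq gene table gives to Tmigd3, an adjoining gene, and it was well above background on 0 of 8 arrays, so it was not tested.

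The array pattern of Adora3 recurred in the gene beside it and, less closely, in genes that are not its neighbours. I830077J02Rik, the next protein-coding gene in the RefSeq order of chromosome 3, read -6.15, -4.58, -4.41 and -4.55 in R6/2, against -4.58, -6.01, -3.91 and -5.36 in WT. The same 3 arrays were low and the same array was highest. Centred on their own means, these 2 genes differed by a root mean square of 0.207 over the 8 arrays, the smallest of 16878 tested genes set against Adora3. Next nearest were Itgad (0.446), Frrs1 (0.502), Ifi204 (0.515) and Igsf6 (0.525), each highest on WT replicate 3. None of them is among the 4 nearest protein-coding genes on either side of Adora3. What the genes share was not tested. The probe of I830077J02Rik was well above background on 6 of 8 arrays. The exceptions were R6/2 replicate 1 and WT replicate 2, both among the low arrays, so the match there rests on values not well above background. I830077J02Rik was singled out after its values were seen, so this is a description with no test.

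**Figure D3:**
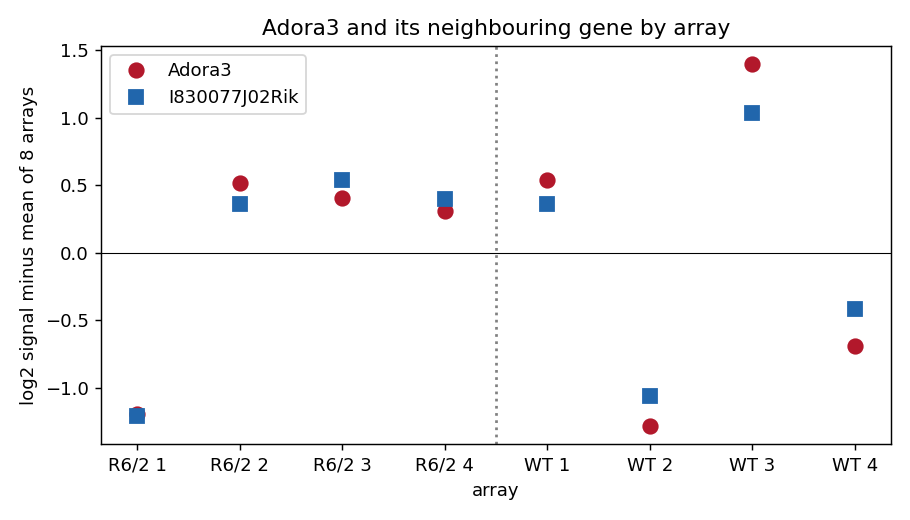
Log2 signal minus the gene's mean over 8 arrays for Adora3 (circles) and I830077J02Rik (squares), R6/2 arrays left of the dotted line and WT arrays right of it. Both genes are low on R6/2 replicate 1, WT replicate 2 and WT replicate 4, and highest on WT replicate 3. I830077J02Rik was not well above background on R6/2 replicate 1 and WT replicate 2.

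Of the enzymes, none was called. Nt5e, which makes extracellular adenosine from AMP, read 0.71, 0.42, 0.76 and 0.65 in R6/2, against 0.86, 0.71, 0.51 and 0.76 in WT, a difference of -0.08 ± 0.11 (95% interval -0.33 to 0.17, limma adjusted p 0.753). Adk, the main route of adenosine removal in brain, read 3.49, 3.46, 3.40 and 3.45 in R6/2, against 3.52, 3.39, 3.20 and 3.58 in WT on its brighter probe. The R6/2 arrays lay inside the WT range. The difference was 0.03 ± 0.09 (95% interval -0.18 to 0.24, limma adjusted p 0.902), and the second Adk probe gave 0.12 ± 0.09 (95% interval -0.10 to 0.34, limma adjusted p 0.574). Ada read -2.28, -2.25, -1.82 and -1.34 in R6/2, against -1.68, -2.75, -1.20 and -2.57 in WT. Its WT arrays spanned the whole R6/2 range, and the difference of 0.13 ± 0.37 had a 95% interval of -0.73 to 0.99 (limma adjusted p 0.891). The intervals of Nt5e and both Adk probes are the narrower ones, and that of Ada is wide.

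The transporters differed in sign. Slc29a1, which encodes the equilibrative transporter ENT1, read 0.87, 0.70, 1.06 and 0.85 in R6/2, against 1.25, 1.17, 1.15 and 1.23 in WT. All R6/2 arrays were below all WT arrays, with R6/2 replicate 3 closest to WT. The difference was -0.33 ± 0.09 (95% interval -0.53 to -0.13), or 1.26-fold lower, with a limma adjusted p of 0.106, so it was not called. Slc29a2, which encodes ENT2, read -0.66, -0.52, -0.44 and -0.47 in R6/2, against -0.74, -0.62, -0.63 and -0.49 in WT, a difference of 0.10 ± 0.08 (95% interval -0.09 to 0.29, limma adjusted p 0.586) with overlapping groups.

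The Adora2a difference was set against that of other markers of indirect pathway neurons. Of these 13 genes, 4 were called lower and 0 higher, where 1.49% of all tested genes were called lower and 0.468% higher. In sign, 10 of the 13 were lower in R6/2 and 3 were higher. The list was chosen with earlier results of these data known, so these shares are a description and not a test. Called were Penk, the enkephalin precursor, at a log2 difference of -1.11 ± 0.11 (limma adjusted p 0.0102), and Upb1 at -0.95 ± 0.17 (0.0419). Also called were the receptors Gpr52 at -0.68 ± 0.09 (0.017) and Gpr6 at -0.66 ± 0.12 (0.0431). With the replicate block Penk (limma adjusted p 0.0459) and Gpr52 (0.0482) were still called, and Upb1 (0.0593) and Gpr6 (0.059) were not. Drd2, the D2 receptor, differed by -0.72 ± 0.15 (limma adjusted p 0.0615) without being called. The list's median difference was -0.66, and its summed level was 113 to 147 in R6/2 and 225 to 276 in WT. Most of that sum was the bright Penk probe; the other 12 markers summed to 25.6 to 30.7 in R6/2 and 34.0 to 41.1 in WT. The mean log2 of the 13 markers differed by -0.46 ± 0.05. Adora2a relative to that mean was 3.43, 2.94, 2.98 and 2.37 in R6/2, against 3.81, 3.37, 3.50 and 3.80 in WT, a further difference of -0.69 ± 0.24. R6/2 replicate 1 lay inside the WT range, and the two-sided exact permutation p was 0.0571 for 4 against 4 arrays. Exchanging genotypes within replicate numbers gave an exact p of 0.125, the smallest that 4 pairs allow. Without R6/2 replicate 1 the further difference was -0.86, with an exact permutation p of 0.0286. That array was the only R6/2 array inside the WT range, so leaving it out separates the groups fully and fixes this p. Leaving out any other single array did not pass the threshold.

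**Figure D4:**
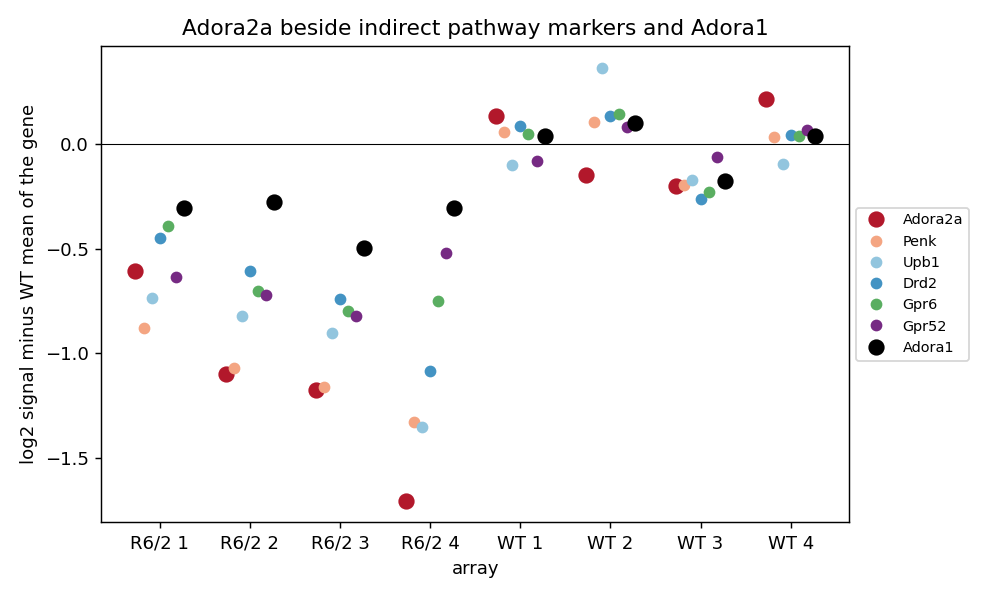
Log2 signal minus the WT mean of each gene for Adora2a, 5 indirect pathway markers and Adora1, by array, R6/2 left of WT. On R6/2 replicate 4 Adora2a is the lowest of the 7 genes, and Adora1 is the least reduced of the 7 on every R6/2 array. The 5 markers are the 4 called ones and Drd2, taken from the 13 listed after their values were seen. Of those not shown, Plxnd1, Nell1 and Cadps2 were reduced more than Adora1 on average. Ttc12 (0.20), Sp9 (0.08), Ptprm (0.01), Grik3 (-0.07) and Gucy1a1 (-0.26) were less reduced than Adora1 or higher in R6/2.

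Marker lists of other cell types, also chosen with earlier results of these data known, were summarised in the same way. The 10 direct pathway markers had a median of -0.06, with 5 lower and 5 higher in sign. Of these, 2 were called lower, where 1.49% of all tested genes were. They were Chrm4 at -0.59 ± 0.09 (limma adjusted p 0.0294) and Pdyn at -0.63 ± 0.11 (0.0371). With the replicate block neither was called (limma adjusted p 0.0663 and 0.0617). Drd1, the D1 receptor, differed by -0.70 ± 0.14 (limma adjusted p 0.0573) and Isl1 by 0.46 ± 0.09 (0.0555), both without overlap and not called. The 12 pan-neuronal markers had a median of -0.16 with 0 called, but their summed level was 358 to 392 in R6/2 and 410 to 443 in WT, without overlap. Medians were -0.35 for 8 cortical neuron markers, -0.09 for 12 astrocyte markers, -0.18 for 12 microglial markers, -0.17 for 10 endothelial markers, -0.08 for 10 mural and meningeal markers and 0.07 for 12 oligodendrocyte lineage markers, with 0 genes called in any of them. All 8 cortical neuron markers were lower in R6/2. Nrn1 differed by -1.23 ± 0.28 (limma adjusted p 0.0731) and Cux2 by -0.24 ± 0.10 (0.263), both without overlap. The part of these marker levels in the Adora2a, Adora1 and Slc29a1 differences was not tested.

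The 5 genes whose pattern over the 8 arrays was nearest to Adora2a, by the root mean square difference of centred log2 values among 15285 genes, were Pde10a (0.187), Cnr1 (0.194), Penk (0.199), Camk2n1 (0.208) and Pttg1ip2 (0.213). Pde10a is a striatal phosphodiesterase that breaks down cAMP and cGMP, Cnr1 the CB1 cannabinoid receptor and Camk2n1 an inhibitor of CaM kinase II. Their differences lay between -1.25 and -0.97; because the genotype difference is part of the pattern used to choose them, values close to that of Adora2a follow from the choice and are given as a description. On the chromosome, 1 of the 8 nearest protein-coding genes to Adora2a was called, its immediate neighbour Upb1. Upb1 is also among the indirect pathway markers. Around the other 8 members, 1 of the 54 tested among 64 such genes was called, Rin1 near Slc29a2. Of all tested genes 1.95% were called. With the replicate block neither Upb1 nor Rin1 (limma adjusted p 0.0675) was called.

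Several genes of a list drawn up for A2A receptor signalling in the striatum were lower in R6/2. Whether their differences bear on the A2A receptor was not tested. Of 23 genes of receptor signalling, 8 were called lower and 0 higher, where 1.49% of all tested genes were called lower, and the median difference was -0.47. The list was chosen with earlier results of these data known, so its share of calls is a description and not a test. With the replicate block 3 of these were called, Penk, Arpp21 (limma adjusted p 0.0482) and Ppp1r1b (0.0475), and with the methods' t-test 2. The 4 of largest change were Penk, Cnr1 at -1.07 ± 0.19 (limma adjusted p 0.0409), Pde10a at -0.99 ± 0.14 (0.0246) and Arpp21, which encodes a cAMP-regulated phosphoprotein, at -0.90 ± 0.10 (0.0104). Adcy5, the adenylyl cyclase of striatal neurons, Pde1b, Ppp1r1b (DARPP-32) and Rgs9 made up the remaining called genes. Penk and Drd2 are also among the indirect pathway markers.

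Of 57 further genes of nucleotide breakdown, adenosine enzymes, nucleoside and ATP transport and P2 receptors, 51 were tested and 0 were called by limma, as by the methods' t-test after adjustment; 11 of them, or 21.6%, had an unadjusted limma p under 0.05, close to the 19.0% of all tested genes. For nucleotide breakdown, the ATP-cleaving ectoenzyme Entpd1 read -2.31, -2.33, -2.16 and -2.35 in R6/2, against -2.01, -1.72, -1.86 and -1.88 in WT, without overlap, a difference of -0.42 ± 0.08 (limma adjusted p 0.0555). Enpp3 differed by 0.67 ± 0.20 (0.146). Among the intracellular enzymes, Ak5, a brain adenylate kinase, differed by -0.52 ± 0.18 (0.184) and Adal by 0.28 ± 0.10 (0.192). Panx2, a pannexin, differed by 0.34 ± 0.09 (0.121) and Slc17a9, the vesicular nucleotide transporter, by -0.55 ± 0.17 (0.15). The ATP-gated channels P2rx1 and P2rx5 differed by -0.34 ± 0.09 (0.11) and -0.48 ± 0.15 (0.16). The medians of these 4 lists lay between -0.03 and 0.04.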

How the data were processed

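The 8 scanner files come from version 10.7.3.1 of Agilent Feature Extraction, per the file headers, and the deposited intensity values are spot signals, local background and a processed signal. The authors also deposited a table of log2 values, which were found from the values to be log2 of the processed signal minus a constant per array that left 75% of values below it; the scale is log2, genes were not centred, the direction is R6/2 over WT for 100% of values, and column medians were -3.48 to -3.27. The p-values the authors deposited there come from an unpaired t-test per the file headers, and the fold values the authors deposited are ratios without a sign.

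Here log2 of the processed signal minus log2 of each array's 75th percentile was used, without outlier spots. Of 55681 probes, 26762 were named by accession, 5056 by gene number and 373 by file symbol through the RefSeq gene table of GRCm38.p6, used for names and gene order only. Differences were fitted with limma 3.58.1 in R 4.3.3. The members and lists were chosen with earlier results of these data known. Named are all members, up to 4 called genes of each pathway list (or the 2 of smallest p) and the 5 genes nearest to Adora2a; called or illustrative genes outside it were chosen after their values were seen. Same-numbered arrays of the genotypes deviated together (correlations 0.133 to 0.356, other pairs -0.19 to 0.05) and share a slide column, so a replicate block was also run. Blocked p-values are given for Adora2a, the only called member, for both contrasts and for the called genes of the lists. On simulated data with the R6/2 against WT design, 50 of 35121 probes were changed. There limma recovered 44% of 1.5-fold, 82% of 2-fold, 92% of 3-fold and 90% of 4-fold changes. Each of these runs also gave 8 false calls. In the data 529 probes were called, many more than the 50 changed in a run, so these shares may not carry over. Alternatives were quantile normalization, normexp background correction, the filter, the block, the authors' values and t-test, array weights, the mean of a gene's probes and leaving out each array.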

Additional observations from a re-analysis of the deposited data

Results flagged for a closer look

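In 56 groups of 4 arrays checked, 3 had 1 array whose gap to the nearest other array exceeded Dixon's 95% critical share of the group's range; a few such groups arise by chance at that level. For Adora1 in R6/2 the share was 0.86, with replicate 3 low at 3.59. For the brighter Adora3 probe in R6/2 it was 0.878, with replicate 1 low at -4.10. For Cnr1 in WT it was 0.869, with replicate 3 low at 4.82.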

How the results depend on the processing

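The 529 probes called over the array became 981 with normexp, 982 with array weights, 110 with no filter on dim probes, 283 with the replicate block, 144 with the methods' t-test on the authors' values, and 100 to 505 when 1 array was left out. The 1 member gene called became 0 with no filter, the replicate block, the authors' log2 values or the t-test, 2 with array weights, and 0 to 1 when 1 array was left out. Of 176 settings over the 11 member probes, 152 kept direction and side of the threshold, 11 lost the call, all for Adora2a, 1 gained it and 12 reversed, all for uncalled probes. Reversed were Adora3 at -0.0635 with normexp and the brighter Adk probe at -0.0164 with array weights. When 1 array was left out, values changed sign within -0.41 to 0.49 for Adora3, -0.10 to 0.41 for Ada, -0.00375 to 0.16 for the brighter Adora2b probe and -0.0460 to 0.0808 for the brighter Adk probe. Adora2a against the other indirect markers passed the threshold with normexp at -0.76, and with 1 array left out it ran between -0.86 and -0.50, past the threshold only without R6/2 replicate 1. Adora2a against Adora1 stayed at -0.80 with the replicate block but missed the threshold; with 1 array left out it ran between -0.97 and -0.60 and missed it without any 1 of the WT arrays. With the replicate block, Cnr1 (0.0508), Pde10a (0.0649), Adcy5 (0.0509), Pde1b (0.0609), Rgs9 (0.06), Camk2n1 (0.0583) and Pttg1ip2 (0.0605) were no longer called by limma's adjusted p. Over all settings run, the 23 signalling genes gave 2 to 13 calls and the 13 indirect markers 1 to 6, all lower. The causes were not tested. A slide or scan block was not run, since all arrays share 1 slide and scan. The number of arrays limits precision.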

Other observations

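Some genes of the nucleotide breakdown and transport lists, with overlapping genotypes, varied over arrays alongside choroid plexus markers. The summed level of 8 such markers, in multiples of the array's 75th percentile, was 188, 47.0, 131 and 115 in R6/2 replicates 1 to 4, against 233, 56.2, 245 and 80.1 in WT replicates 1 to 4. Most of each sum was the bright Ttr probe. Enpp2, of the nucleotide breakdown list and strongly expressed by choroid plexus, read 6.93, 5.84, 6.51 and 6.21 in R6/2, against 7.15, 5.73, 6.91 and 5.88 in WT. Slc28a3, a concentrative nucleoside transporter, read -2.23, -4.12, -3.13 and -3.36 in R6/2, against -2.16, -3.59, -2.41 and -3.61 in WT. In both genotypes replicates 1 and 3 had the higher choroid plexus sums and the higher Enpp2 and Slc28a3 values. These genes were singled out after their values were seen, and the part of the choroid plexus level was not tested.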
